A study of Mus musculus with 30 samples.

Results

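Elongin B (EloB) was mapped on the chromatin of E14Tg2A mouse embryonic stem cells by chromatin immunoprecipitation and sequencing (ChIP-seq), in cells with EPOP (also C17orf96) and in cells depleted of it. The samples described are the 4 EloB ChIPs among the 30 samples of the study, chosen by their titles, and their lists hold 3129 of the 240359 peaks in the 20 peak lists used here. A peak is a stretch of the genome where the authors called more immunoprecipitated DNA than background. All cells were E14Tg2A grown without feeder cells on gelatin, in serum with leukaemia inhibitory factor (LIF). EPOP was depleted in stable lines made with a lentiviral short hairpin RNA (shRNA) and selected with puromycin. The titles name no treatment for the other 2 EloB ChIPs, which are called without knock-down here, and the peak names in those lists carry a control shRNA tag. Replicate 1 of both conditions used a Bethyl antibody and replicate 2 of both an Abcam antibody, so replicate number and antibody cannot be told apart. EloB ChIPs also had a protein crosslinking step before formaldehyde, with either of a pair of reagents, and the labels do not say which sample had which. The labels name no separate cultures for the replicates, so differences among lists of 1 condition may be technical.

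Elongin B and Elongin C form a stable dimer that serves as an adaptor. Bound to Elongin A it belongs to the elongin complex, which stimulates transcription by RNA polymerase II, and bound to proteins such as VHL or SOCS factors it links substrates to Cullin-based ubiquitin ligases. EPOP binds the Elongin B/C dimer and also Polycomb repressive complex 2 (PRC2), whose core subunit is Suz12, whose accessory subunits include Jarid2, and which writes the histone mark H3K27me3. In embryonic stem cells PRC2 lies at the CpG-rich promoters of silent developmental genes, many of which also carry H3K4me3, the mark of promoters. The comparison asks which EloB binding sites still yield a peak once EPOP is depleted, and what else is bound at those sites.

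EloB peaks were 9.80-fold fewer upon EPOP knock-down, and almost all of the difference lay with peaks on EPOP. Replicate 1 held 1296 peaks when EPOP was present and 164 when it was depleted, and replicate 2 held 1542 and 127. Means were 1419 ± 173.9 (SD, n = 2) and 145.5 ± 26.16 (SD, n = 2). The lists of the 2 conditions did not overlap in number, and the log2 ratio of −3.29 exceeded the gap between the 2 lists without knock-down (0.25 on the log2 scale) and between the 2 knock-down lists (0.37). Within antibodies the log2 ratio was −2.98 with the Bethyl and −3.60 with the Abcam antibody. The two-sided exact permutation test gave p = 0.333, the smallest value that 2 lists against 2 allow.

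Split by place, almost all of the change in number lay with the peaks on EPOP regions, that is stretches with an EPOP peak in both EPOP lists without knock-down. On EPOP regions the EloB lists without knock-down held 1068 and 1397 peaks and the knock-down lists held 2 and 3 (log2 ratio −8.96). This group again did not overlap between conditions, and its exact permutation p was 0.333. Away from EPOP regions the lists without knock-down held 228 and 145 peaks and the knock-down lists 162 and 124. These numbers did overlap between conditions (log2 ratio −0.36, exact permutation p = 0.667). Within each antibody they were lower upon knock-down, with log2 ratios of −0.49 for Bethyl and −0.23 for Abcam. Peaks on EPOP regions made up 82.4% and 90.6% of the lists without knock-down, and 1.22% and 2.36% of the knock-down lists. When an EPOP peak in either EPOP list counted, the mean of the knock-down lists was 20.9% in place of 1.79%.

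**Figure D1:**
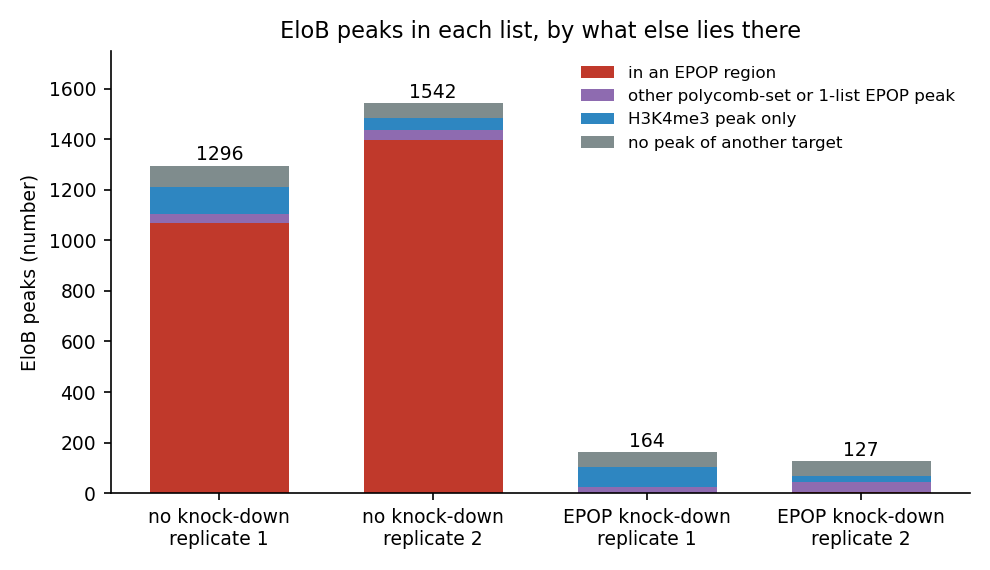
EloB peaks in each of the 4 lists (vertical axis, number of peaks, stacked from 0), coloured by what else was called at the peak in lists without knock-down. "Other polycomb-set or 1-list EPOP peak" means no shared EPOP region but a peak of Suz12, Jarid2, H3K27me3 or 1 EPOP list. The label names this rule only, and not every such peak lay on Suz12, Jarid2 or H3K27me3. Peaks on EPOP regions number 1068 and 1397 without knock-down and 2 and 3 upon EPOP knock-down, while the other peaks number 228, 145, 162 and 124.

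To follow single places, an EloB region was taken as merged EloB peaks that were found in both lists without knock-down, which gave 930 regions. No peak was left at 858 of them (92.3%) in knock-down replicate 1 and at 868 (93.3%) in replicate 2, and a peak was left at 72 (7.74%) and 62 (6.67%). An EPOP region lay on 841 EloB regions (90.4%), called EPOP-bound, and the other 89 (9.57%) are called EPOP-free.

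Among the 841 EPOP-bound regions a peak was left at 2 in knock-down replicate 1 (0.238%, Wilson 95% interval 0.0652 to 0.863) and at 3 in replicate 2 (0.357%, 0.121 to 1.04). These were 5 different regions, and none had a peak in both knock-down lists, a count of 0 with a Wilson 95% upper limit of 0.455%. Among the 89 EPOP-free regions a peak was left at 70 in replicate 1 (78.7%, 69.1 to 85.9) and at 59 in replicate 2 (66.3%, 56.0 to 75.3). Of these, 45 had a peak in both knock-down lists, which is every such region among the 930 (4.84%), and 84 had one in at least 1 list, which left 5 with none. Intervals cover the counting of regions only, since regions of 1 list are not replicates. The mean of both lists was 0.297% for EPOP-bound and 72.5% for EPOP-free regions. With every list shortened to its 127 highest-scoring peaks, the length of the shortest, it was 0.769% of 65 EPOP-bound regions (0 and 1 left) and 100% of 7 EPOP-free regions. The EPOP-free share rests on both antibodies. It was 55.2% when replicate 1 without knock-down was left out, 37.9% when replicate 2 was, and 35.5% for regions of either list. The EPOP-bound share was 0.179% when replicate 1 without knock-down was left out, and 2.49% when an EPOP peak in either list counted as bound.

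The difference between the classes was present at every level of the authors' peak score. The score is the authors' own value per peak and is used here only to order peaks within a list. Regions were put into 4 groups of like size by their mean score percentile over both lists without knock-down. In the highest group (mean percentile 80.89 to 99.93) a peak was left at 1 and 3 of 211 EPOP-bound regions, and at 21 and 22 of 22 EPOP-free regions, in replicates 1 and 2. In the next it was left at 1 and 0 of 215 EPOP-bound and at 16 and 11 of 17 EPOP-free regions. In the third group there were 0 and 0 of 207 EPOP-bound and 21 and 13 of 26 EPOP-free regions. In the lowest group (2.219 to 41.37) there were 0 and 0 of 208 EPOP-bound regions, and 12 and 13 of 24 EPOP-free regions, or 50.0% and 54.2%. Median percentiles of the classes were close, at 61.38 for EPOP-bound and 58.56 for EPOP-free regions. Median widths were 1725 bp and 1542 bp.

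**Figure D2:**
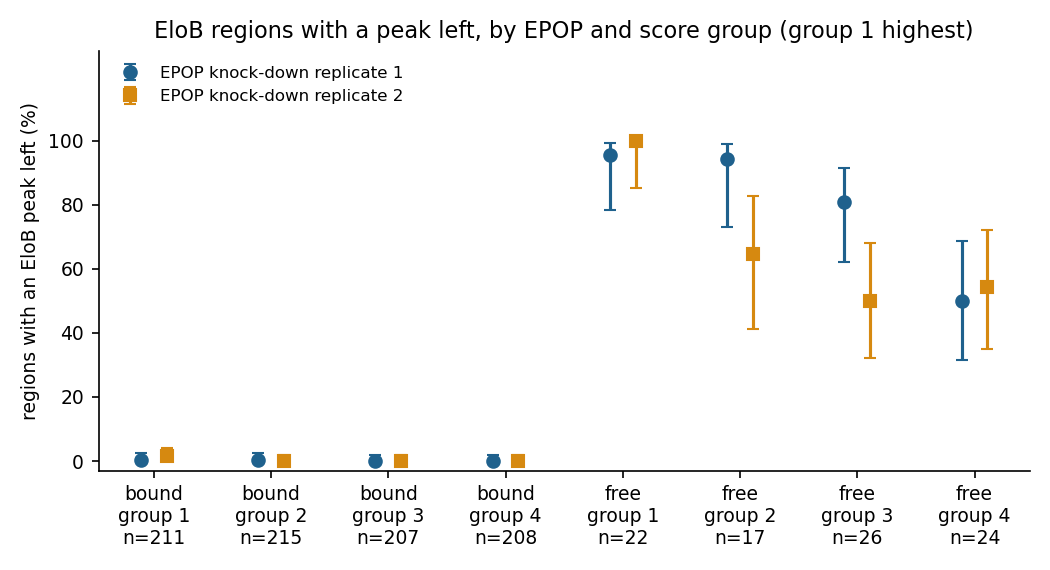
Share of EloB regions with a peak left upon EPOP knock-down (vertical axis, percent) by group of EloB score without knock-down (horizontal axis, group 1 highest), for EPOP-bound and EPOP-free regions and each knock-down replicate, with Wilson 95% intervals. EPOP-bound shares lie at or under 1.42% in every group, and EPOP-free shares lie between 50.0% and 100%.

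The EPOP-bound regions without a knock-down peak included the strongest in the EPOP-bound class. Positions are on the mouse build mm9, counted from 1, and no gene is assigned to a region because no mm9 annotation was used here. The region chr5:33772730-33778184, 5455 bp wide, scored 1329 with the Bethyl and 1878 with the Abcam antibody, the latter the highest score of its list, and neither knock-down list held a peak there. All 16 lists of the other 5 targets had a peak at that region. At chr13:31897619-31901073 the scores without knock-down were 821.8 and 993.4. At chr9:62989385-62995013, 5629 bp wide, they were 736.6 and 1107. At chr1:42752468-42756354 they were 834.9 and 705.4. No peak was left at any of these 3 places in either knock-down list, although each lay above the 98th percentile of both lists without knock-down.

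The 5 EPOP-bound regions with a peak left had it in 1 knock-down list each, at a percentile of 9.451 to 49.09 within that list, and narrower than before. At chr4:44714463-44717557 the scores were 348.7 and 445.6 without knock-down, there was no peak in knock-down replicate 1, and the peak of replicate 2 scored 53.11, near the lowest score of 50 in all lists. Its width was 810 bp, against 3059 bp with the same antibody without knock-down. At chr3:115954029-115955846 the scores were 279.7 and 394.5, and the peak of knock-down replicate 2 scored 73.74 and spanned 826 bp against 1674 bp. At chr6:53768901-53771265 they were 201.4 and 424.9, and the peak of replicate 2 scored 65.74 and spanned 885 bp against 2365 bp. In each of these 3 places replicate 1 had no knock-down peak. The other two had a knock-down peak in replicate 1 alone, of score 52.99 at chr11:102806363-102808193 (298.9 and 252.3 without knock-down) and 75.11 at chr13:58907452-58910300 (86.61 and 224.6). Against the same antibody without knock-down the log2 width ratio had a median of −1.27 over the 2 peaks of replicate 1 and −1.42 over the 3 of replicate 2.

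The 45 regions with a peak in both knock-down lists, all EPOP-free, ranged widely in score, with percentiles of 3.354 to 99.70 (median 82.62) within knock-down replicate 1 and 7.087 to 99.61 (median 76.77) within replicate 2. Those described here are among the 8 that ranked highest without knock-down. The region chr1:46909816-46911127 ranked first of all 930 and scored 2027 and 1780 without knock-down and 2072 and 1366 upon EPOP knock-down. Its peaks spanned 1109 bp and 1312 bp without and 1089 bp and 1133 bp upon knock-down, and besides EloB only H3K4me3 had a peak there. At chr9:78320451-78326400, 5950 bp wide and likewise with H3K4me3 alone, the scores were 1927 and 524.4 without and 931.4 and 242.1 upon knock-down. At chr15:79376645-79377689, also with H3K4me3 alone, they were 606.4 and 391.2 without and 726.1 and 414.8 upon knock-down. These 3 places held a peak in all 4 lists and lay above the 90th percentile of each. At chr15:79905310-79908115 EloB was the only one of the 6 targets with a peak, and the scores were 747.9 and 335.4 without and 549.2 and 73.77 upon knock-down. The first part of the mitochondrial sequence (chrM:1-5556) scored 1189 and 536.8 without and 99.98 and 3100 upon knock-down, and lay at a percentile of 66.16 within the list of knock-down replicate 1. The score 3100 is the one that recurs most among high scores, at 39485 peaks over all lists, so it is not read as an amount.

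The 5 EPOP-free regions with no knock-down peak all carried H3K4me3 alone. Among them, chr11:33049311-33051857 scored 192.2 and 88.40 without knock-down, and chr13:22131709-22133164 scored 170.5 and 74.74. Both lay in the third of the 4 score groups.

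**Figure D3:**
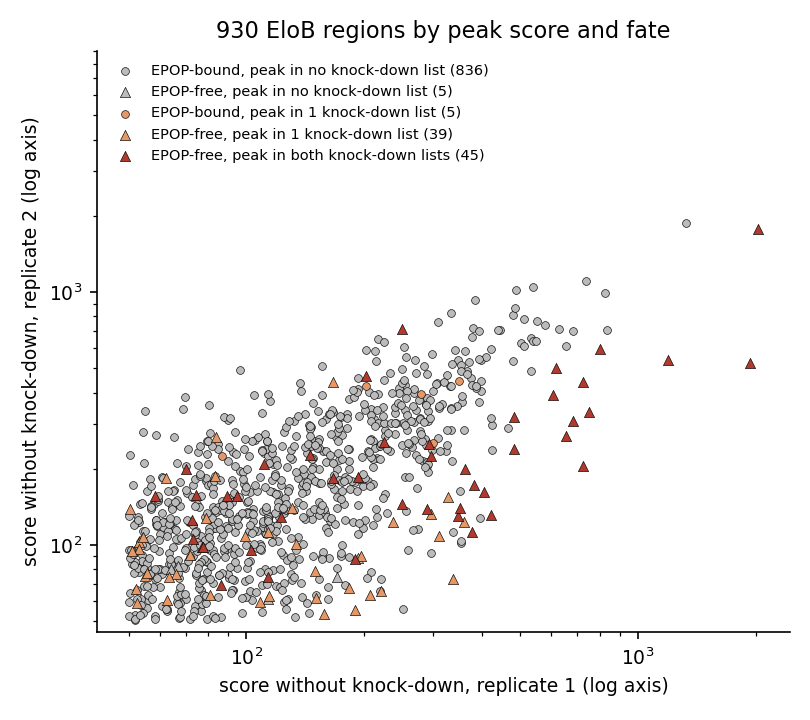
Score of each of the 930 EloB regions in the 2 lists without knock-down (horizontal axis replicate 1, vertical axis replicate 2, both log scales, authors' score). Symbols show whether a region is EPOP-bound or EPOP-free and whether a knock-down list held a peak there. Regions with a peak left span the score range and are nearly all EPOP-free, 84 of 89 against 5 of 841 EPOP-bound.

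Peaks left at EPOP-free regions were close to their width without knock-down. The median log2 width ratio to the same antibody without knock-down was −0.037 over 70 regions in replicate 1 (28 wider, 39 narrower) and −0.15 over 59 in replicate 2 (14 wider, 41 narrower). Between the 2 lists without knock-down the median ratio, replicate 2 over replicate 1, was −0.087 at EPOP-free and 0.033 at EPOP-bound regions. The EPOP-free ratio of replicate 1 was thus smaller in size than the gap between antibodies, and that of replicate 2 larger. Over the 45 regions in all 4 lists, Spearman's rho of the scores between conditions was 0.83 with Bethyl and 0.70 with Abcam. Between antibodies it was 0.66 without knock-down and 0.29 upon knock-down. These correlations are across regions, which are not independent replicates.

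EPOP-free regions did not all behave alike in the 2 antibodies. They were divided, after the data were seen, by what was called there in lists without knock-down. In the first class, 30 regions had a peak of Suz12, Jarid2, H3K27me3 or of 1 EPOP list. A peak was left at 17 of them in replicate 1 (56.7%) and at 30 in replicate 2 (100%). This class includes all 18 EPOP-free regions with a peak in at least 10 of the 16 lists of other targets, whatever the target. The mitochondrial region is among them. In the second class, 40 regions had H3K4me3 and none of the others, and a peak was left at 35 in replicate 1 (87.5%, 73.9 to 94.5) and 18 in replicate 2 (45%, 30.7 to 60.2). All 18 were among the 35. In the third class, 19 regions had no peak of the other 5 targets without knock-down, and a peak was left at 18 (94.7%) and 11 (57.9%). The share left was thus higher with Abcam in the first class and higher with Bethyl in the other two.

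Without knock-down the classes also stood in a different place among the EPOP-bound regions of each list. Median scores in replicates 1 and 2 were 77.97 and 157.0 in the first class, 208.2 and 106.4 in the H3K4me3 class and 166.0 and 123.5 where EloB was alone. At EPOP-bound regions they were 118.8 and 154.6, so that with Bethyl the first class lay below and the other two above them, and with Abcam the first class lay close to them and the other two below. The part of antibody, or of the crosslinker used with it, in the shares left was not tested.

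**Figure D4:**
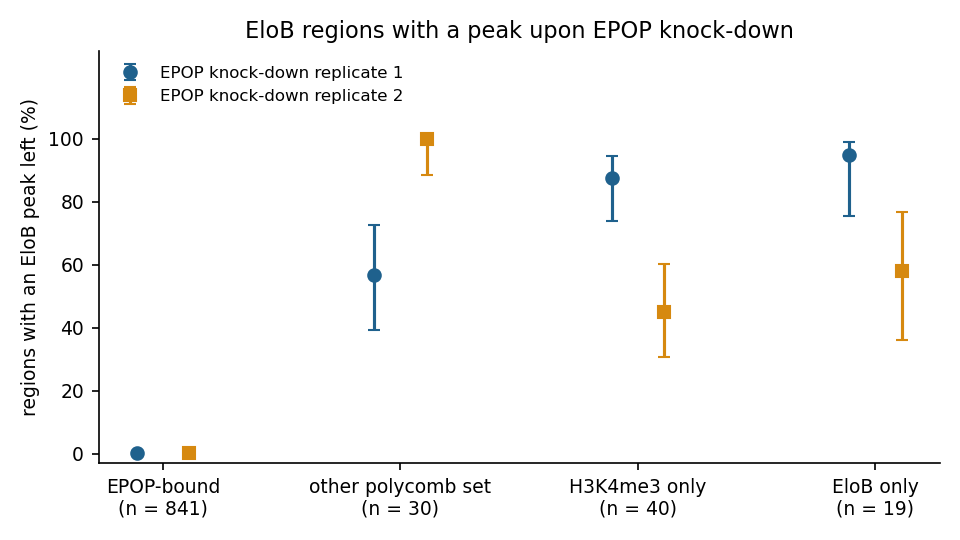
Share of EloB regions with a peak left upon EPOP knock-down (vertical axis, percent, Wilson 95% intervals) for EPOP-bound regions and 3 classes of EPOP-free regions, by knock-down replicate. "Other polycomb set" is the class with a peak of Suz12, Jarid2, H3K27me3 or 1 EPOP list. The label names this rule only. Of its 30 regions, 18 had a peak in at least 10 of the 16 lists of other targets, whatever the target. EPOP-bound shares are 0.238% and 0.357%, and the lowest EPOP-free share is 45%, of the H3K4me3 class in replicate 2.

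Some EPOP-free regions had an EPOP peak in 1 of the 2 EPOP lists. There were 21 with a peak in EPOP replicate 2 alone, of which 11 and 21 had an EloB peak left in knock-down replicates 1 and 2, and 3 with a peak in EPOP replicate 1 alone, all of which had one left in both. The 65 with no EPOP peak in either list had one left at 56 (86.2%) and 35 (53.8%). At the 18 EPOP-free regions with a peak in at least 10 of the 16 lists of other targets, an EloB peak was left at 11 and 18. Without them the shares of EPOP-free regions left were 83.1% and 57.7% of 71. These regions clustered. On chromosome 9, from 2999901 to 3036924, 11 EPOP-free regions lay within 37.0 kb, with a peak left at 5 and 11. On chromosome 2, from 98502092 to 98507851, 4 lay within 5.76 kb, with a peak left at 1 and 4. Counted by stretches of regions at most 100 kb apart, 62 (91.2%) and 44 (64.7%) of 68 EPOP-free stretches had a peak left.

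EPOP-bound regions clustered as well, and the largest clusters, like nearly all EPOP-bound regions, had no peak left. The 841 regions formed 653 stretches, of which 537 were single regions. The largest held 13 regions each, on chromosome 2 from 74493486 to 74601830 (108.3 kb) and on chromosome 6 from 52124860 to 52267924 (143.1 kb). Another on chromosome 11 from 96132736 to 96215531 held 7 regions in 82.8 kb, and one on chromosome 17 from 86012785 to 86088921 held 6 in 76.1 kb. No region of these 4 stretches had an EloB peak in either knock-down list, as held for 836 of all 841 EPOP-bound regions. Over all stretches 2 and 3 of 653 had a peak left.

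EloB peaks that only 1 antibody gave without knock-down had none left on EPOP regions, and elsewhere the share left varied by class. Replicate 1 alone had 328 such peaks, with a median score of 67.41, of which 190 (57.9%) lay on EPOP regions, 68 (20.7%) on H3K4me3 alone and 65 on no other target. In knock-down replicate 1, with the same antibody, 0 of the 190, 35 of the 68 (51.5%) and 2 of the 65 (3.08%) had a peak, and 39 of all 138 away from EPOP regions did (28.3%). In knock-down replicate 2, with the other antibody, 0 of the 190, 1 of the 68 and 5 of the 138 (3.62%) did. Replicate 2 alone had 555, with a median score of 71.97, of which 502 (90.5%) lay on EPOP regions, and in knock-down replicate 2 a peak was left at 0 of these 502 and at 15 of the other 53 (28.3%). Taking every peak of a list with its own antibody, 2 of 1068 on EPOP regions and 109 of 228 elsewhere (47.8%) had a peak left in replicate 1, and 3 of 1397 and 76 of 145 (52.4%) in replicate 2.

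EPOP ChIP upon EPOP knock-down shows how much of EPOP was still called at these regions. Of the 841 EPOP-bound EloB regions, 34 (4.04%) had an EPOP peak in EPOP knock-down replicate 1 and 353 (42.0%, 38.7 to 45.3) in replicate 2, against 0.839% and 8.88% of all 5720 EPOP regions. The titles give replicate 1 as EPOP while its description names IgG, so its values carry that doubt. The EPOP peaks left in replicate 2 were narrower than without knock-down at all 353 regions, with a median log2 width ratio of −1.81. An EloB peak was left in either list at 4 of the 353 regions with EPOP still called (1.13%) and at 1 of the 488 without (0.205%). Conversely, 349 of the 836 EPOP-bound regions with no EloB peak left still had an EPOP peak in replicate 2. EPOP-free regions also held EPOP peaks upon EPOP knock-down, since their name refers to the lists without knock-down. Of the 89, 20 had one in replicate 1, 24 in replicate 2 and 27 in either. Of the 30 with a peak of Suz12, Jarid2, H3K27me3 or 1 EPOP list, 20 had one in each replicate. Of the 19 with EloB alone, 0 and 4 had one, and of the 40 with H3K4me3 alone, 0 and 0.

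The other targets were still called where EloB was not. Suz12 had a peak at 841 of 841 EPOP-bound EloB regions in both of its lists without knock-down and in its EPOP knock-down list. Jarid2 had a peak at 831 (98.8%) without and 840 (99.9%) upon knock-down, and H3K27me3 at 834 (99.2%) and 820 (97.5%). H3K4me3 had a peak at 823 (97.9%) and 840 (99.9%) in its lists without knock-down and at 826 (98.2%) upon knock-down. At the 836 of these regions with no EloB peak left, the EPOP knock-down lists held Suz12 at 836, Jarid2 at 835, H3K27me3 at 815 and H3K4me3 at 821. Since the 836 are nearly all of the 841, these counts largely repeat those above. Over all regions of each target, 96.9% of Suz12, 96.9% of Jarid2, 77.0% of H3K27me3 and 96.1% of H3K4me3 regions had a peak upon EPOP knock-down. Each of these targets has 1 EPOP knock-down list, so these differences have no replicate check.

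**Figure D5:**
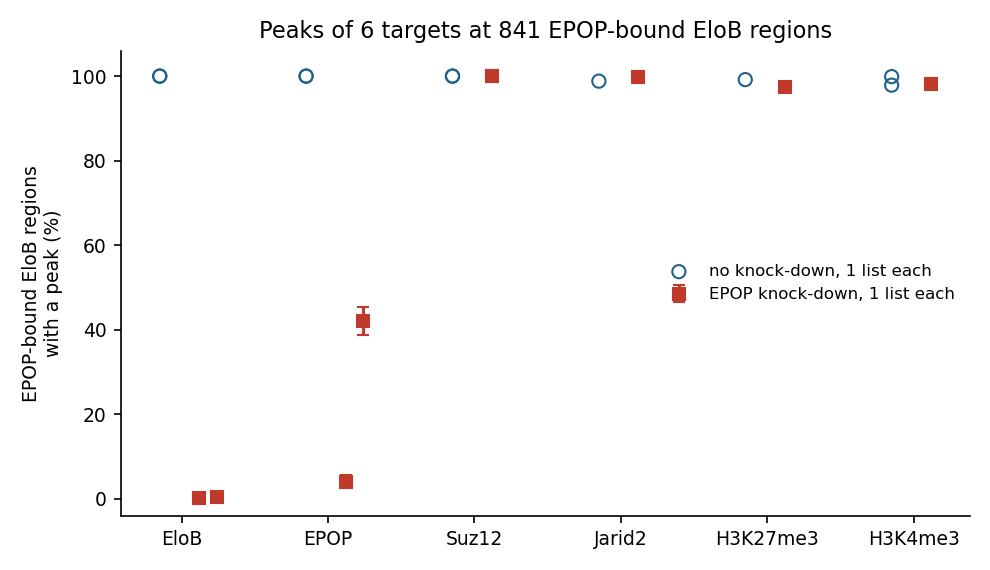
Share of the 841 EPOP-bound EloB regions with a peak of each target (vertical axis, percent), with 1 point per list, the lists of both conditions side by side, and Wilson 95% intervals on the knock-down points. The points without knock-down of EloB and EPOP are at 100% by the choice of regions. Upon EPOP knock-down EloB lies at 0.238% and 0.357%, EPOP at 4.04% and 42.0%, and the other 4 targets between 97.5% and 100%.

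H3K27me3 was the target whose share left was low overall and high at EloB. Of H3K27me3 peaks on EPOP-bound EloB regions, 868 of 878 (98.9%, 97.9 to 99.4) had a peak upon EPOP knock-down. Of those on the 4382 EPOP regions with no EloB peak, 3542 of 4045 did (87.6%, 86.5 to 88.6). The same shares were 724 of 724 and 3619 of 3672 (98.6%) for Suz12, and 791 of 791 and 1052 of 1089 (96.6%) for Jarid2. They were 827 of 829 and 4197 of 4208 for H3K4me3. EPOP regions with and without EloB were not matched on score or width, and the difference was not tested.

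Median widths of the other targets at these regions moved less than those of the EPOP peaks left, and of the few EloB peaks left. For Suz12 the median log2 width ratio of the EPOP knock-down list was −0.34 against list 1 (814 of 841 narrower) and 0.12 against list 2 (701 of 841 wider). These lists carry different control tags in their peak names and differed by −0.53 from each other. H3K4me3 gave 0.060 (601 of 819 wider) and −0.077 (620 of 826 narrower), with a gap of 0.15 between its lists without knock-down. Both targets thus changed by less than their own lists differed. Jarid2 peaks were wider at 764 of 831 regions (median 0.23) and H3K27me3 peaks at 722 of 817 (median 0.32), each with 1 list per condition, so that a difference between libraries cannot be told apart from one between conditions.

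EloB sat inside larger EPOP and Suz12 peaks. Over the 841 EPOP-bound regions the median EloB region was 0.421 times as wide as its EPOP region (median 3898 bp), 839 lay wholly inside it, and the centres were a median of 318 bp apart. Suz12 regions there had a median width of 4910 bp, and all 841 EloB regions lay wholly inside them. Jarid2 peaks were nearer in size, with a median of 2716 bp, and contained 731 of 831 EloB regions (88.0%). H3K4me3 regions had a median of 2584 bp and contained 619 of 824 (75.1%), and H3K27me3 peaks contained 628 of 834 (75.3%). The EloB centre lay 172.8 bp from that of H3K4me3, 196 bp from that of Jarid2, 447 bp from that of Suz12 and 523 bp from that of H3K27me3 (medians). From the side of EPOP, 761 of 5720 EPOP regions (13.3%) carried an EloB region, and 67 carried 2 or more.

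Most knock-down peaks lay on an EloB peak of the full lists without knock-down. Of the 164 peaks of replicate 1, 122 (74.4%) overlapped an EloB peak of either list without knock-down, 112 with the same antibody and 83 with the other. Of the 127 peaks of replicate 2, 84 (66.1%) did, 79 with the same antibody and 69 with the other. With all 4 lists shortened to 127 peaks, which leaves far fewer peaks to overlap, the mean share was 25.2% in place of 70.3%. On H3K4me3 regions lay 91 (55.5%) and 41 (32.3%) of the knock-down peaks, against 89.8% and 91.6% of the peaks without knock-down. The knock-down lists shared 59 peaks of replicate 1 (36.0%) with 60 of replicate 2 (47.2%). None of these lay on an EPOP region, and 55 (93.2%) and 56 (93.3%) of them lay on an EloB peak without knock-down.

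New peaks, on no EloB peak without knock-down, numbered 42 in replicate 1 and 43 in replicate 2. They were low, with median scores of 57.37 and 56.49, only 4 in each list were shared with the other knock-down list, and 30 and 32 lay on no peak of any other target. The 4 highest within their lists were chr15:79908278-79910757 (2480 bp, score 141.9) and chr8:44375125-44376264 (1140 bp, score 108.1) in replicate 1, and chr8:72125465-72127740 (2276 bp, score 119.0) and chrX:34703120-34703739 (620 bp, score 91.16) in replicate 2. The first of these lies next to, without overlapping, the EPOP-free region of chromosome 15 that carried EloB alone.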

How the data were processed

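ChIP-seq peak lists of 20 samples were used, 4 of them for EloB. Lists hold peak positions and the authors' score, deposited without a definition in the sources used here and never under 50. The submitters' processing notes name Bowtie, TopHat, Cufflinks and mm9 but no version or role, and peak names carry MACS per the file headers. Peaks were called separately in each list and depth per sample is unknown, so an absent peak may still hide signal under the caller's threshold, and no floor per sample is given.

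Groups came from the titles. Overlap means at least 1 bp. EloB regions were merged peaks present in both EloB lists without knock-down, EPOP regions likewise, and shares carry Wilson 95% intervals. Peak number was tested with a two-sided exact permutation test over lists. Same-numbered EloB lists share an antibody per the labels; their deviations in peak presence from the group means correlated at 0.109 over 1892 merged EloB peaks. Regions were ranked by mean score percentile, and named were the top 8 EPOP-bound without and up to 6 with a knock-down peak, the top 8 EPOP-free with both and 4 with none, and the 4 highest new peaks, of which some are printed. Alternatives were other score filters, overlaps, list lengths, region sets, chromosomes, EPOP-bound rules, covered length, each EloB list left out and pairing by antibody. The samples, the EPOP split and the named-region rule were chosen with earlier results of these data known; the division of EPOP-free regions, the stretches and the removal of regions called in most lists were added after the data were seen. Gene lists and sequence features were not run, since no mm9 genome or annotation was used here. Software was bedtools 2.31.1, Matplotlib 3.10.9, SciPy 1.17.1, NumPy 2.4.6 and Python 3.11.15. Overlaps equalled those of bedtools in 80 of 80 pairs of lists. On simulated data the share left was within 0.725 percentage points of the set value over 841 EPOP-bound and 3.93 over 89 EPOP-free regions. Simulated peaks were placed inside the regions, so this checks the counting and says nothing on peak calling or depth.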

Additional observations from a re-analysis of the deposited data

How the results depend on the processing

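In all, 130 alternatives were run. Of 58 that bear on shares left or on knock-down peaks, 36 moved the value by less than the SD between the 2 knock-down lists and 22 by more. Of 64 that bear on the carriage of other targets, 41 stayed within the Wilson 95% interval of the value and 23 did not. The other 8 bear on peak number, the only value here with a direction that could turn, and 0 of them turned it. The EPOP-free share left was above the EPOP-bound share in 13 of 13 settings that gave both. The lists hold no reads, so depth sets an unknown limit on which peaks were called.

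The log2 ratio of peak number was −3.93 for peaks of score 102.9 or more and −3.44 for covered length, and ranged from −3.48 to −3.11 over lists left out. Of all EloB regions 7.20% were left on average, with 5.66% for the higher scores, 8.33% for gaps of up to 1000 bp, 10.4% for lists of equal length, 5.63% for regions of either list and 5.35% to 7.74% over lists left out. EPOP-bound regions gave 0.297%, against 0% for the higher scores, 0.769% for equal lengths, 0.163% for regions of either list, 2.49% with either EPOP list and 0.179% to 0.357% over lists left out. EPOP-free regions gave 72.5%, against 100% for equal lengths, 35.5% for regions of either list and 37.9% to 78.7% over lists left out.

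Knock-down peaks lay on an EloB peak in 70.3%, against 87.4% for the higher scores, 25.2% for equal lengths and 56.4% to 74.4% over lists left out. They lay on an EPOP region in 1.79%, against 0% for the higher scores, 20.9% with either EPOP list and 1.22% to 2.36% over lists left out.

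Paired by antibody (replicate block), the shares left were 0.201% for EPOP-bound and 50.1% for EPOP-free regions, each list being set against its own antibody, and the log2 ratio of peak number was −3.29 with an exact sign-flip permutation p of 0.5, the smallest that 2 pairs allow.

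EloB regions carried, without and upon EPOP knock-down, Suz12 in 92.3% and 92.5%, Jarid2 in 91.6% and 92.6%, H3K27me3 in 91.5% and 90.3% and H3K4me3 in 95.4% and 94.8%. With regions of either list these were 85.9% and 86.2%, 81.9% and 85.4%, 84.6% and 83.9%, and 90.4% and 89.7%. Over lists left out they ranged from 83.8% to 92.1% and 84.2% to 92.3% for Suz12, 80.4% to 89.8% and 83.6% to 92.0% for Jarid2, 82.8% to 90.8% and 82.1% to 89.8% for H3K27me3, and 90.7% to 93.0% and 90.3% to 92.3% for H3K4me3. H3K4me3 gave 96.7% without knock-down for the higher scores, 96.6% and 97.0% for gaps of up to 1000 bp and 98.6% in both conditions for equal lengths.

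After the data were seen, EPOP-free stretches of regions within 100 kb gave 77.9%, and EPOP-free regions without those called in at least 10 other lists gave 70.4%.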

Other observations

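The knock-down lists, which hold few EPOP-bound peaks, had other shares of peaks on chromosomes 9 and X. On chromosome 9 lay 88 (6.79%) and 101 (6.55%) of the EloB peaks without knock-down and 24 of 164 (14.6%) and 22 of 127 (17.3%) upon EPOP knock-down. That chromosome held 18 of the 89 EPOP-free regions, 11 of them in the stretch of 37.0 kb, and 42 of the 841 EPOP-bound regions. On chromosome X lay 8 (0.617%) and 16 (1.04%) of the peaks without knock-down, 4 (2.44%) in knock-down replicate 1 and 14 (11.0%) in knock-down replicate 2.

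Knock-down of EloB itself, with 1 list each for Suz12 and H3K4me3, left a Suz12 peak at 834 of the 841 EPOP-bound EloB regions (99.2%) and an H3K4me3 peak at 841.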
